A study of Mus musculus with 9 samples.

Results

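Ets1 and Fli1 lie side by side on mouse chromosome 9 and point away from each other, and the acetylated domain around them was taken as every H3K27ac island from 300 kb before to 300 kb after the stretch that holds both genes. The genes are 2 of the 22380 protein-coding entries of the mm9 annotation used here, and the window, chr9:31929793-32865405, spans 935.613 kb. It held 57 of the 65563 islands called in wild-type (WT) cells and 80 of the 82213 islands called in cells lacking Tcf1 and Lef1 (dKO). An island is a stretch of enriched 200-bp windows, and its value is the number of sequenced reads counted in it.

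The cells were naive CD8+ T cells sorted from spleen as GFP+ TCRbeta+ cells with high CD62L and low to intermediate CD44. All mice were hCD2-Cre+ and carried the Rosa26-GFP reporter. At Tcf7, which encodes Tcf1, and at Lef1, WT mice were Tcf7+/+ and Lef1+/+, and dKO mice were Tcf7 fl/fl and Lef1 fl/fl. The hCD2 promoter drives Cre in T cells, GFP marks the cells in which Cre has acted, and per the study's methods mice of 6 to 12 weeks and of both sexes were used. The 4 WT and the 3 dKO H3K27ac samples were pooled by genotype into 1 list each before islands were called, and the input of each genotype, 1 sample each, entered no comparison here. No difference below therefore has a replicate check or a p-value, and each interval is a 95% Wilson interval that covers counting error only. Library depth and genotype cannot be told apart in these lists.

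Acetylation of lysine 27 of histone H3 marks active promoters and enhancers, and long runs of it are common around genes that define a cell type. Ets1 and Fli1 belong to the ETS family of transcription factors, which bind DNA around a GGAA core. Ets1 acts in the development, survival and activation of T cells, and Fli1 in blood stem cells, megakaryocytes and lymphocytes. Tcf1 and Lef1 are related HMG-box factors that bind a motif with the core CTTTGAT and serve in the development and maintenance of T cells.

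Fli1 (ENSMUSG00000016087) occupies chr9:32229793-32348974 on the minus strand and has 1 annotated start, at its high-coordinate end. Ets1 (ENSMUSG00000032035) occupies chr9:32443806-32565405 on the plus strand, with a distal start at 32443806 used by 1 annotated transcript and a downstream start at 32503627 used by 3. The starts of Ets1 lie 59.821 kb apart, and the Fli1 start lies 94.832 kb before the distal start of Ets1. No gene is annotated in the 300 kb after Ets1, and the next gene begins 970.426 kb beyond it.

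Stretches of the mm9 genome from 5 acetylated regions of the domain are shown because the results below turn on them. They are the regions with the most WT counts in Ets1 and after it, the region over the Fli1 start, and the regions with the largest increase and decrease. Each is 200 bases of the plus strand, read 5′ to 3′, in which capitals mark a match to the TCF/LEF core, CTTTGAT or its complement ATCAAAG. Each stretch lies outside annotated exons, within an intron of Ets1 or Fli1 or in the gene-free sequence after Ets1. The regions were chosen after their values were seen. Within each region the stretch was picked for holding the most matches, so the presence of a match in it was fixed in advance. The stretches therefore do not show how common the core is in these regions.
Ets1 gene-body region, chr9:32507127-32507326: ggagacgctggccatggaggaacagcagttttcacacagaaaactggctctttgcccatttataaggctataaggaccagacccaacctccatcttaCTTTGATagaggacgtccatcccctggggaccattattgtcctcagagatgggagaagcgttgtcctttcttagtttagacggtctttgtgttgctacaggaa
Densest region after Ets1, chr9:32714368-32714567: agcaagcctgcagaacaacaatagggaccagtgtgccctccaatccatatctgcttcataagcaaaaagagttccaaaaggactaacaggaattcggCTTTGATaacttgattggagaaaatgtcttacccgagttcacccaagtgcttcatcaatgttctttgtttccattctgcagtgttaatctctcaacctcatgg
Fli1 promoter region, chr9:32345743-32345942: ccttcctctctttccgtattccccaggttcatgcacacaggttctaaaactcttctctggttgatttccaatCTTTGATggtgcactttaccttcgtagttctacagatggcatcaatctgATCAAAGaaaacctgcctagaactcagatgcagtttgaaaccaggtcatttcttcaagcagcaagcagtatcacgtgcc
Region with the largest increase, at the 3′ end of Fli1, chr9:32233715-32233914: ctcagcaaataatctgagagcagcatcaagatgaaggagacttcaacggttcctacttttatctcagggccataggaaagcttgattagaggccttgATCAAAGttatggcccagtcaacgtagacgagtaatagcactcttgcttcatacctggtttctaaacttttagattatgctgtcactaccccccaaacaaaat
Region with the largest decrease, after Ets1, chr9:32786681-32786880: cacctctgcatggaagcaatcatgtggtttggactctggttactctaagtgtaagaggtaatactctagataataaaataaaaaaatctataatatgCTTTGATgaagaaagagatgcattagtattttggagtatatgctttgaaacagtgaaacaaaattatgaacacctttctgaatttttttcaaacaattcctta

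The Ets1 gene-body region held 10 matches in 82.8 kb, the densest region after Ets1 held 6 in 43.8 kb, and the Fli1 promoter region held 17 in 83.4 kb. The region with the largest increase held 2 matches and the region with the largest decrease held 1. Among tiles of 1 kb cut from the islands of the domain, 16.2% of WT tiles (13.3 to 19.6%, 519 tiles) held the TCF/LEF core on either strand, beside 14.8% of 366425 tiles from all WT islands. In the dKO list the shares were 15.9% (13.1 to 19.3%, 527 tiles) and 14.6%. The share over all islands lay within the counting interval of the domain in both lists. The RUNX core TGTGGTT was in 18.7% of WT tiles of the domain (15.6 to 22.3%), below the 23.5% of all WT tiles. In the dKO list it was in 18.6% of tiles of the domain (15.5 to 22.1%) and in 23.7% of all tiles. The domain was thus lower in both lists beyond its counting interval. The lists cover largely the same sequence here, so they are not separate observations, and neighbouring tiles need not be independent. The ETS sequence CCGGAAGT was in 1.35% and 1.36% of WT tiles and in 1.33% of dKO tiles both in the domain and overall. Matches of each motif were counted on both strands whether or not they overlapped a match of another, and a match is a description of the sequence only.

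The domain held a large amount of H3K27ac in both genotypes. In the WT list it carried 190066 of 82668007 island counts, a share of 0.230% (0.229 to 0.231%), and in the dKO list 115459 of 57665047, a share of 0.200% (0.199 to 0.201%). Scaled to 1000000 counts of the list total (counts per 1000000, CPM), the domain went from 2299 in WT to 2002 in dKO, a log2 ratio of dKO to WT of -0.20 (-0.21 to -0.19). Per covered kb the log2 ratio was -0.24. Islands covered 539.8 kb of the window in WT and 556.4 kb in dKO, at 352 and 208 counts per covered kb, beside 210.5 and 134.3 over all islands of each list. The scaled level was therefore lower in dKO over a covered length that was slightly longer.

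Set among windows of the same length tiled along the autosomes, the domain was near the top in both lists. Of 1944 such windows with counts in both lists, 3 exceeded the domain in WT and 15 in dKO, and the median window held 384 CPM in WT and 359 CPM in dKO. The tiles were not centred on clusters of islands as the domain was. The log2 ratio of the windows had a median of -0.07 (SD 0.47), and 34.9% of windows were below the domain. Among the 195 windows with the most counts the median was 0.05, and 14 were below the domain. The domain was thus low among strongly acetylated windows and within 1 SD of the median of all windows.

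Joined at the default distance of ROSE, a program that stitches neighbouring peaks into super-enhancers, the islands of Ets1 and Fli1 fell into the same stitched region in both lists. In WT this region held 55 islands over 648.2 kb and ranked 4 of 14376 stitched regions by counts. In dKO it held 79 islands over 734 kb and ranked 12 of 12919.

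Islands of both lists that shared at least 1 base were merged into 61 regions in the domain, of which 47 held islands of both lists, 2 of WT alone and 12 of dKO alone. The 2 WT islands alone were 3.51% of the WT islands of the domain, where 14.9% of all WT islands were alone, and the 12 dKO islands were 15.0%, where 26.2% of all dKO islands were. These islands were small, with 182 to 251 counts in WT and 67 to 487 in dKO. Of the 47 shared regions, 18 were higher in dKO by scaled counts, where 43.4% of the 45322 shared regions of the genome were, and 29 were lower. Their log2 ratios ranged from -1.74 to 1.43 around a median of -0.10, beside -0.07 for the genome. A ratio of at least 1.5 was reached by 2 regions higher in dKO, where 11.1% of all shared regions reached it, and by 6 regions lower in dKO, where 14.6% did. Neither count stood above its background. Per covered kb, 2 regions were higher past this ratio (1.17% of all) and 0 lower (4.51% of all).

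**Figure D1:**
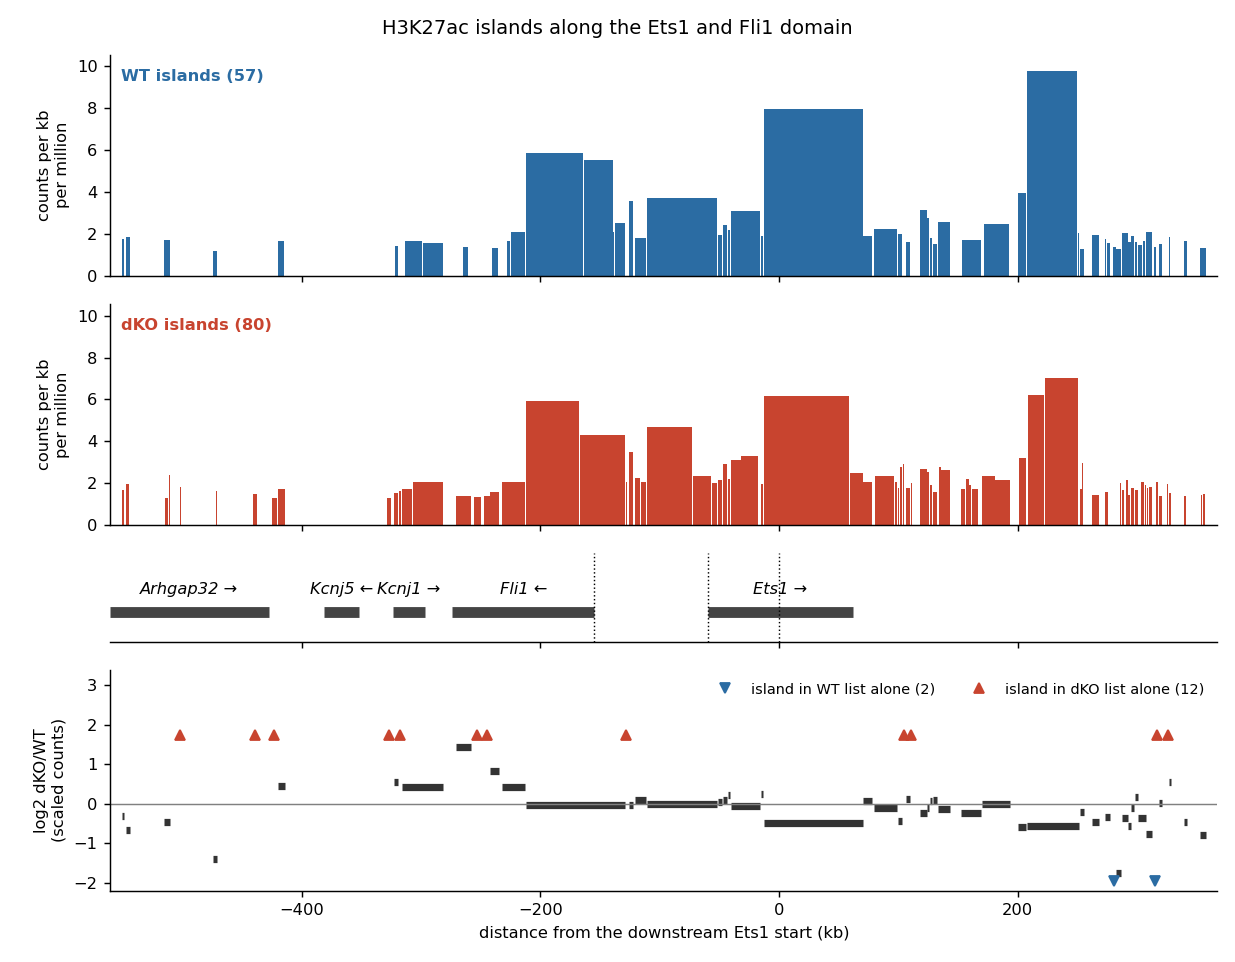
H3K27ac islands of WT (blue, 57) and dKO (red, 80) along the domain, drawn at their width on the x axis (distance from the downstream Ets1 start in kb) and at their scaled depth (CPM per kb of island) on the y axis, over the annotated genes with dotted lines at the starts of Fli1 and Ets1. The lowest panel gives the log2 ratio of dKO to WT scaled counts of each shared region as a bar and the islands of 1 list alone as triangles at a fixed height, and shows the regions at the 3′ end of Fli1 above 0 and the Ets1 gene-body region and the densest region after Ets1 below 0.

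The highest WT blocks in the plot of islands along the domain were the Ets1 gene body and a block in the gene-free sequence after it, and both were lower in dKO. When the window was divided by the ends of the genes and the downstream start of Ets1, with islands cut at the edges, the order of the log2 ratios followed the order of the stretches along the chromosome. Cutting takes the counts of an island as spread evenly over its width. The 300 kb before Fli1 went from 82.6 to 115 CPM (0.48, 0.43 to 0.53), the body of Fli1 from 375 to 402 CPM (0.10, 0.08 to 0.13), and the stretch between the genes from 327 to 348 CPM (0.09, 0.06 to 0.11). The stretch between the starts of Ets1 went from 229 to 191 CPM (-0.26, -0.30 to -0.23), the rest of Ets1 from 491 to 367 CPM (-0.42, -0.44 to -0.40), and the 300 kb after Ets1 from 795 to 579 CPM (-0.46, -0.48 to -0.44). The values of the Fli1 body and of the stretch between the genes had overlapping intervals, as did those of the rest of Ets1 and of the 300 kb after it. In steps of 50 kb, with islands cut, the ratios did not fall steadily along the chromosome. Neighbouring steps after Ets1 had -0.08 and -0.04, between steps at -0.59 and -0.62. The Fli1 side was higher in dKO by counts and the Ets1 side lower. Per covered kb the ratios were 0.14, -0.30, 0.07, -0.18, -0.41 and -0.31 in the same order, so the body of Fli1 changed direction and the other stretches did not. The covered share of the Fli1 body was 67.9% in WT and 89.6% in dKO, the widest gap of the 6 stretches.

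**Figure D2:**
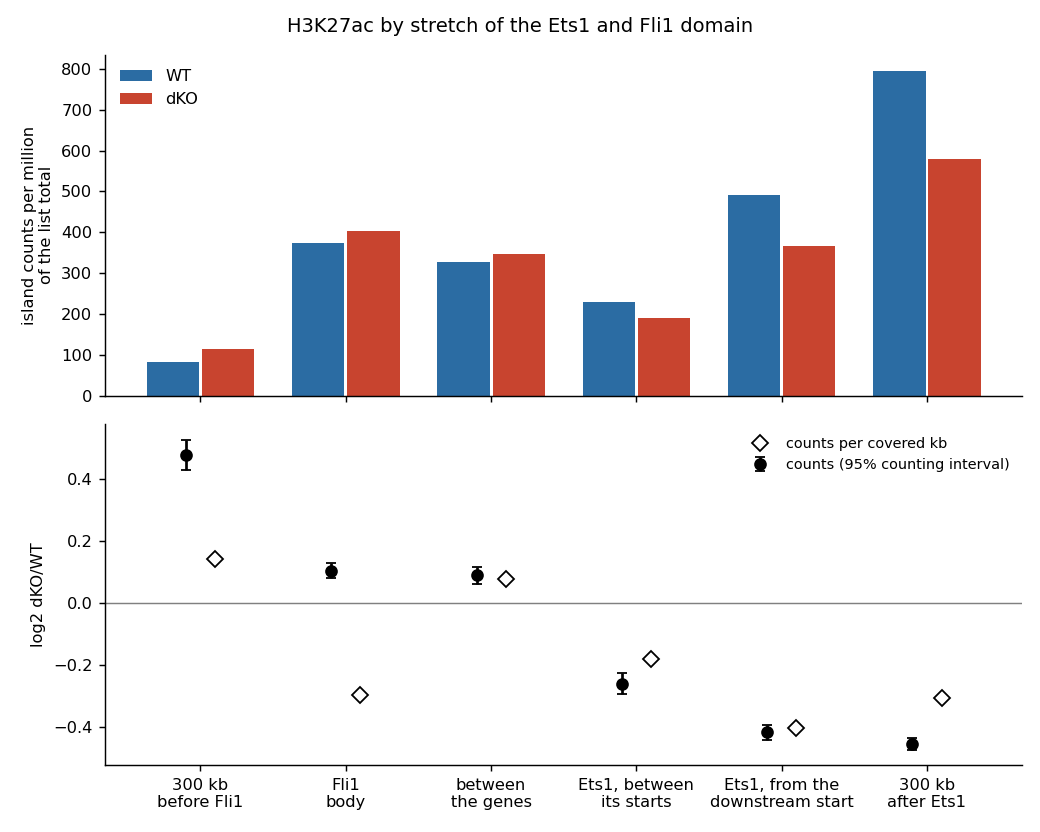
Scaled H3K27ac in 6 stretches of the domain, as island CPM in WT (blue) and dKO (red) above, and as log2 ratio of dKO to WT below for counts (filled circles, bars for the 95% counting interval) and for counts per covered kb (open diamonds). The filled circles go from 0.48 before Fli1 to -0.46 after Ets1, and for the Fli1 body the open diamond, at -0.30, is on the other side of 0 from the circle, at 0.10.

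Ets1 was the more strongly acetylated gene in both lists. The islands that touched its body held 80625 counts in WT and 45131 in dKO, 975 and 783 CPM, a log2 ratio of -0.32 (-0.33 to -0.30) and of -0.28 per covered kb. Per kb of gene body with 50 kb upstream it carried 5.29 CPM in WT and 4.43 CPM in dKO, with islands cut at the stretch's ends. These were ranks 27 and 54 of 16487 protein-coding genes, while Fli1 carried 3.16 and 3.39 CPM per kb, ranks 443 and 276. Of a region of 58.8 kb at the distal start of Ets1, only the part within 50 kb of the Fli1 start enters the Fli1 value on this measure.

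Most of the WT signal of Ets1 was in an island that began before the downstream start and ran past the 3′ end of the gene, chr9:32490801-32573600. It was the widest island of the domain and held 54382 counts over 82.8 kb, 657 counts per kb, which ranked 6 of all WT islands by counts and 4 of the 15161 WT islands over a protein-coding promoter. In dKO the same region was covered by an island of 25347 counts and 71.4 kb, which ranked 30 of all dKO islands, and by a further island of 1544 counts and 10.8 kb beyond it. The region as a whole went from 658 to 466 CPM, a log2 ratio of -0.50 (-0.52 to -0.48), and -0.49 per covered kb. Its width was nearly the same in both lists, 82.8 kb and 82.2 kb, so the depth and the scaled count gave nearly the same ratio. In steps of 50 kb along the domain, with islands cut, the step that held the 3′ part of Ets1 had a log2 ratio of -0.59 (-0.62 to -0.56). The step around the downstream start had -0.34 (-0.37 to -0.32). Cutting gives the WT island the same depth in both steps. The contrast between them thus follows the dKO islands and the other islands of each step, and does not place the difference within the gene.

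The region at the distal start of Ets1 was level between the lists as a whole. The start lay in a WT island of 18177 counts over 58.8 kb, chr9:32393001-32451800, and in dKO the same region held 3 islands with 12630 counts over 57 kb. The log2 ratio was -0.01 (-0.04 to 0.03), and 0.04 per covered kb. The dKO island that held the distal start itself had 2090 counts over 15.4 kb, at 136 counts per kb beside 309 in the WT island, but the WT value is an average over a much longer island. With islands cut, the step of 50 kb that held the distal start had a log2 ratio of -0.34 (-0.39 to -0.30), and the step before it 0.28 (0.24 to 0.31). Cutting spreads the WT counts evenly over the region, while the dKO counts follow its 3 islands. These step values therefore cannot place a difference within the region. The 5 further regions between the starts had log2 ratios from -0.04 to 0.25, with intervals that included 0 in all 5. The log2 ratio of -0.26 for the whole stretch between the starts also takes in the beginning of the gene-body island and the end of the region at the distal start. Among whole regions, the lower dKO signal of Ets1 was in the gene-body region.

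Fli1 was close to level between the lists, and its direction depended on the measure. The islands that touched its body held 39849 counts in WT and 29566 in dKO, 482 and 513 CPM, a log2 ratio of 0.09 (0.07 to 0.11), but of -0.24 per covered kb. The region over its start, chr9:32291201-32374600, covers the start and much of the long intron behind it and held 36430 counts in 4 WT islands and 24824 counts in 2 dKO islands. Its log2 ratio was -0.03 (-0.06 to -0.01), and -0.05 per covered kb. The island at the start itself was 24 kb wide with 11016 counts in WT and 37.8 kb wide with 9410 counts in dKO.

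Toward the 3′ end of Fli1 the dKO islands were wider and more numerous. The region chr9:32232801-32245200, which holds exons of the 3′ part of the gene, had a WT island of 4.6 kb with 524 counts and a dKO island of 12.4 kb with 983 counts. Its log2 ratio of 1.43 (1.27 to 1.58) was the largest increase among shared regions of the domain with at least 200 counts. Its depth per covered kb was the same, with a log2 ratio of -0.00, so the difference was in the width called. The region chr9:32261801-32269200 had 546 WT counts in 5 kb and 679 dKO counts in 7.4 kb (0.83, 0.67 to 0.997), and 0.27 per covered kb. Between them lay the islands with the most counts in dKO alone, chr9:32247801-32254000 with 487 counts and chr9:32256401-32261200 with 384. The region chr9:32271801-32290600, next toward the start and named after its values were seen, had a log2 ratio of 0.43 (0.35 to 0.51). The shared regions among these had at most 165 counts per kb in WT, beside 446 in the region over the Fli1 start.

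The sequence after Ets1 held 33 of the 61 regions. Of its 27 shared regions 20 were lower in dKO by scaled counts, where 56.6% of all shared regions of the genome were. Their median log2 ratio was -0.23, and -0.04 per covered kb. It also held the densest wide island of the WT list. The island chr9:32711401-32753400 carried 33961 counts over 42 kb, 809 counts per kb, which ranked 1 by depth among the 611 WT islands of at least 40 kb, and the Ets1 gene-body island ranked 4 among them. In dKO this stretch was split into islands of 4924 and 11181 counts. The merged region, chr9:32711401-32755200, went from 413 to 279 CPM, a log2 ratio of -0.57 (-0.59 to -0.54), and -0.50 per covered kb, the lowest value per covered kb in the domain. The region just before it, chr9:32703801-32710400, also named after its values were seen, went from 2155 to 1000 counts (-0.59, -0.70 to -0.48), and -0.30 per covered kb.

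The other regions named here from the sequence after Ets1 were small, and the decreases among them passed a ratio of 1.5. The largest decrease of the domain was at chr9:32786201-32790400, where 440 WT counts over 4.2 kb stood beside 92 dKO counts over 0.8 kb (-1.74, -2.06 to -1.41). Per covered kb this region was higher in dKO (0.65), since the dKO island was short. The region chr9:32856001-32861000 went from 542 to 219 counts (-0.79, -1.01 to -0.56), and 0.16 per covered kb. The region chr9:32811401-32815800, named after its values were seen, went from 756 to 312 counts (-0.76, -0.95 to -0.57), and kept its direction per covered kb (-0.20). The third largest increase of the domain, at chr9:32830601-32832400, did not reach a ratio of 1.5. It went from 155 to 160 counts (0.57, 0.25 to 0.88), and -0.28 per covered kb. Apart from chr9:32811401-32815800, each of these small regions changed direction when the count was taken per covered kb. Both WT islands with no dKO counterpart were also in this stretch, at chr9:32783401-32785600 with 251 counts and at chr9:32817601-32819200 with 182.

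The Ets1 gene-body region and the densest region after Ets1 together held 46.6% of the WT counts of the domain and 37.2% of its dKO counts. Without them the domain went from 1228 CPM in WT to 1257 CPM in dKO, a log2 ratio of 0.033 (0.019 to 0.047). These 2 regions were singled out after their values, both below that of the domain, were seen, so leaving them out raises the ratio by construction. The near-level remainder is a sum of regions higher and regions lower in dKO, and lower values were not confined to these 2 regions.

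Across the genome, deeply acetylated regions tended to be lower in dKO, and the Ets1 value has to be read beside them. Of 2134 shared regions with at least 500 WT counts per kb, 95.5% were lower in dKO, the median was -0.43, and 35.0% had a lower ratio than the Ets1 gene-body region. Of 1044 shared regions with at least 40 kb covered in WT, by contrast, 49.7% were lower in dKO, the median was 0.00, and 3.26% had a lower ratio. Only 20 regions passed both limits, with a median of -0.34 (SD 0.39), and the densest region after Ets1 and the Ets1 gene-body region were 6 and 7 from the lowest of them. The Ets1 ratio was therefore low among wide regions and near the middle among dense regions. When shared regions were divided into 20 classes by their WT depth, 34.2% of the class of the Ets1 gene-body region and 22.2% of the class of the densest region after Ets1 had a lower ratio than the region itself. For the region over the Fli1 start, 85.3% of its class had a lower ratio, so this region kept more of its scaled count in dKO than most regions of like depth. Classes by WT depth use the WT count that also enters the ratio, and with classes by the mean depth of both lists these shares were 37.9%, 25.0% and 96.1%. Among the 1044 wide regions, by contrast, the region over the Fli1 start was not unusual. Its ratio of -0.03 lay between their lower and upper quartiles, -0.14 and 0.13.

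**Figure D3:**
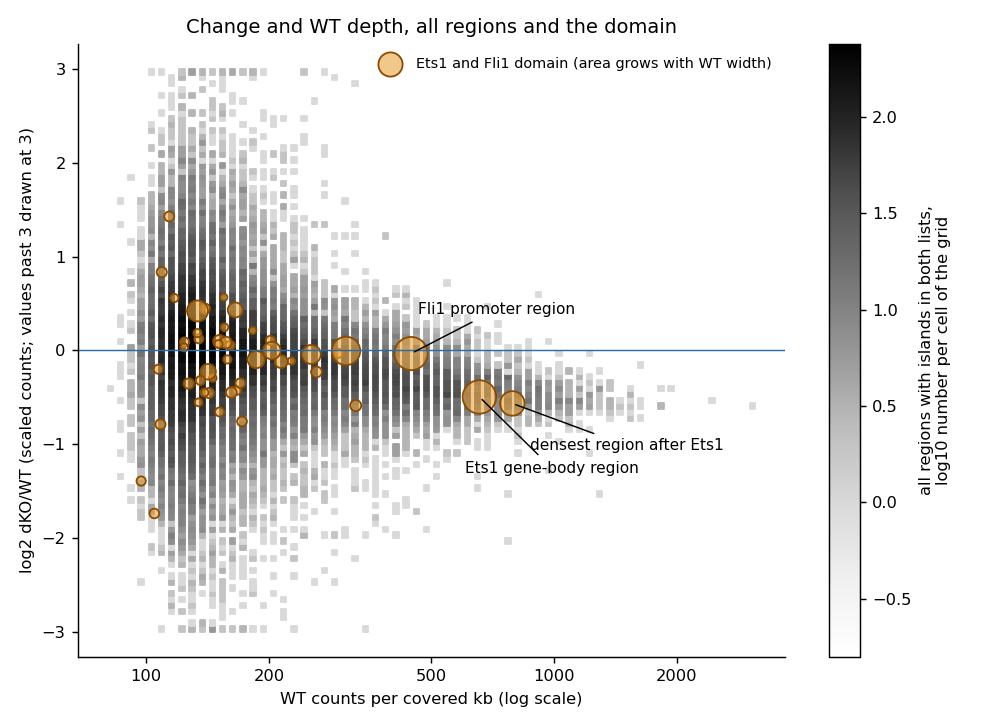
Log2 ratio of dKO to WT scaled counts against WT counts per covered kb (log scale) for 45322 shared regions of the genome (grey grid, darker where there are more regions) and the 47 of the Ets1 and Fli1 domain (orange circles, area growing with the WT width). The grey cloud falls below 0 at high WT depth, the Ets1 gene-body region (-0.50) and the densest region after Ets1 (-0.57) lie within it, and the region over the Fli1 start (-0.03) lies in its upper part.

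Before Fli1, acetylation was sparse, with islands over 17.1% of the 300 kb in WT and 21.5% in dKO. Of its 7 shared regions 3 were higher in dKO, where 43.4% of all shared regions were, and 4 were lower. The islands of dKO alone numbered 5, with 297 counts at most, at chr9:32078801-32082800. The second largest decrease of the domain was at chr9:32029201-32032800, with 350 WT counts over 3.6 kb and 93 dKO counts over 1 kb (-1.39, -1.72 to -1.06), and 0.46 per covered kb. The largest part of the higher dKO total of this stretch was in a region over the 3′ part of Kcnj1 and the sequence after it, chr9:32187601-32221800, which was named after its values were seen, with 4090 WT and 3818 dKO counts (0.42, 0.36 to 0.48), and 0.29 per covered kb.

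For the neighbouring genes in the window, islands were cut at the ends of the gene. Kcnj1, which encodes an inwardly rectifying potassium channel, had islands over 66.4% of its body in WT and 88.8% in dKO. It went from 29.1 to 43.5 CPM (0.58, 0.50 to 0.66). Kcnj5, which encodes a channel subunit of the same family, had no island in either list. Arhgap32, which begins outside the window, went from 21.6 to 19.9 CPM (-0.12, -0.22 to -0.01), with islands over 8.80% of its body in WT. The dense acetylation was thus over Fli1, Ets1 and the sequences between and after them, and the genes before Fli1 carried little of it.

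Among the ETS family, Ets1 had the highest H3K27ac per kb of gene body with 50 kb upstream in both lists. Of a list of 27 family genes 26 were found in the annotation, 24 had islands in both lists, Ehf had an island in WT alone and Fev had none. Fli1 ranked 3 in WT, with 3.16 CPM per kb, after Erf, a repressor of the family, with 3.33, and ranked 2 in dKO, with 3.39 beside 3.20 for Erf. On the same measure Elf1, a lymphoid activator, went from 2.54 to 2.07 CPM per kb, and Spi1, the myeloid and B-cell factor PU.1, from 2.01 to 2.76. With islands that touched this wider stretch counted whole, Fli1 had a log2 ratio of 0.06 (0.05 to 0.08), and -0.13 per covered kb. That count takes in the whole region at the distal start of Ets1, so it is not the ratio of the cut values per kb given above.

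The other 22 family genes with islands in both lists, counted whole, showed no common direction. Of these, 11 were higher in dKO, where 47% of all protein-coding genes were, and 11 were lower. Their median log2 ratio was -0.01, beside -0.02 over 16518 protein-coding genes, and -0.19 per covered kb beside -0.16. A ratio of 1.5 was reached by 2 genes higher in dKO, Elf5 (0.83) and Etv4 (0.83), where 7.05% of all genes reached it, and by 1 gene lower, Etv1 (-0.67), where 9.27% did. These 3 genes had little acetylation, from 1.43 CPM for Elf5 in WT to 21.2 CPM for Etv1 in WT. Per covered kb Elf5 (-0.17) and Etv4 (-0.76) were lower in dKO, and Etv1 remained lower (-0.47). Gabpa, the ubiquitous GA-binding subunit, had a log2 ratio of -0.34 (-0.41 to -0.27), close to the -0.32 of Ets1.

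Beside 9 other T-cell regulator loci taken with 300 kb on either side, the Ets1 and Fli1 domain had the highest H3K27ac per kb in WT and the second highest in dKO. It carried 2.46 CPM per kb in WT and 2.14 in dKO. The domain of Bach2, a repressor that holds T cells in a naive state, was nearly equal in WT, at 2.45, and lower in dKO, at 1.83. The domain of Runx3, which acts in the CD8+ lineage, had 2.01 and 2.34 CPM per kb and ranked 1 in dKO. The log2 ratio of the Ets1 and Fli1 domain, -0.20, was the third lowest of the 10, after Bach2 (-0.42) and Ikzf1 (-0.39), which encodes the lymphoid factor Ikaros, and close to that of Satb1 (-0.18), a chromatin organiser. Tox (-0.07), Lef1 (0.04), Bcl11b (0.11), Gata3 (0.18), Runx3 (0.22) and Runx1 (0.51), all regulators of T-cell development or state, had higher ratios, so the 10 domains differed in direction. Per covered kb Bcl11b and Runx3 were both at -0.05, Lef1 was at -0.15, and the Ets1 and Fli1 domain (-0.24) was second lowest after Bach2 (-0.37). Lef1 is also a gene targeted in dKO.

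**Figure D4:**
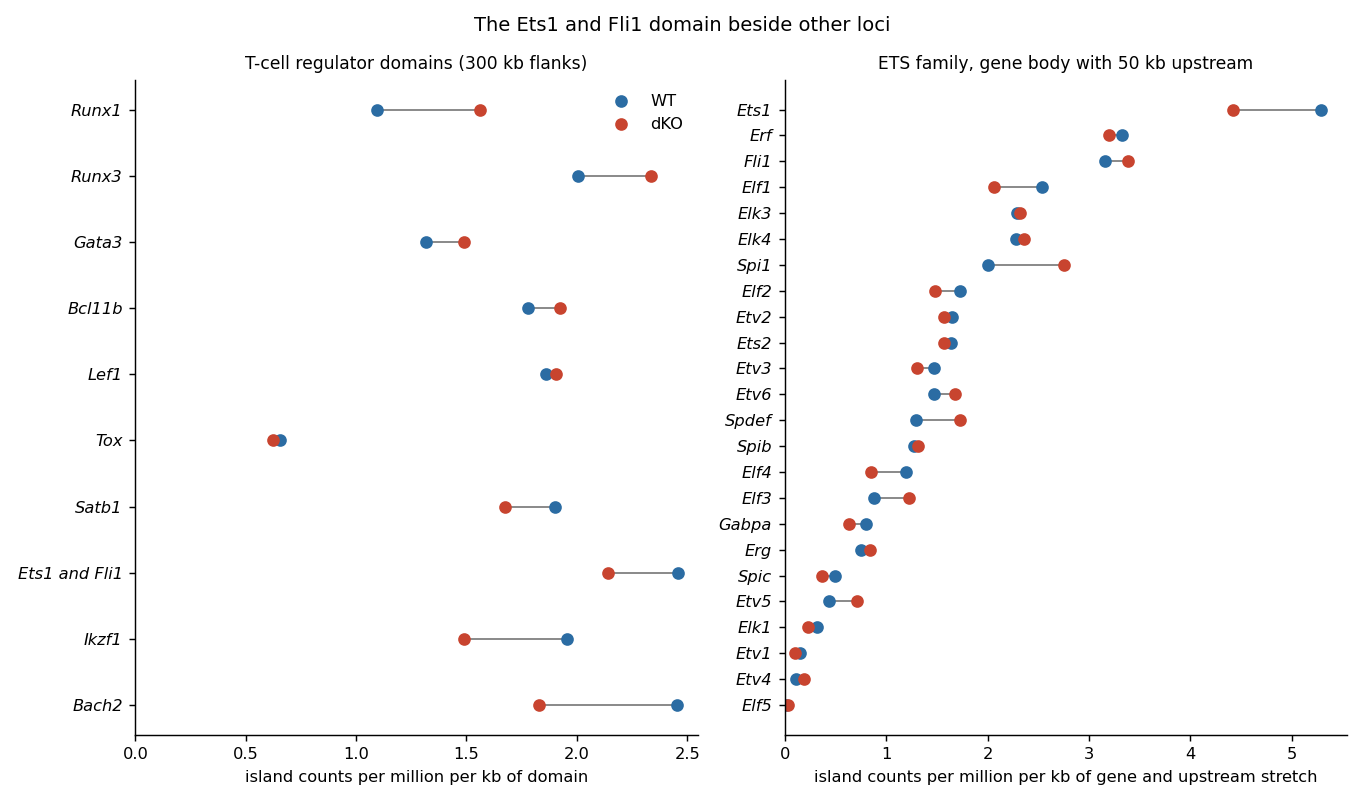
Scaled H3K27ac in WT (blue) and dKO (red) for 10 T-cell regulator domains, ordered by log2 ratio with the lowest at the bottom (left, CPM per kb of domain), and for the 24 ETS family genes with islands in both lists (right, CPM per kb of gene body with 50 kb upstream). The Ets1 and Fli1 domain lies at 2.46 in WT and 2.14 in dKO, and Ets1 leads its family at 5.29 and 4.43.

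The protein-coding genes closest to Ets1 in scaled level per kb in both lists, by Euclidean distance of the log2 values over the 2 lists, were Grap2, an adaptor of T-cell receptor signalling, with 5.18 CPM per kb in WT and 4.45 in dKO, Gimap7, a GTPase of lymphocytes, with 5.41 and 4.42, and 9330160F10Rik with 5.34 and 4.63. Those closest to Fli1 were 4930481A15Rik with 3.15 and 3.38, Rara, a retinoic acid receptor, with 3.17 and 3.39, and Kctd11 with 3.14 and 3.37. With 2 values per gene this likeness describes the level and the ratio only.

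Markers of the sorted cells were acetylated in both lists. All 7 T-cell markers had an island at the promoter in both, from 82.2 to 668 CPM in WT and from 48.2 to 299 CPM in dKO, with a summed level of 1486 CPM in 6 WT islands and 921 CPM in 7 dKO islands, each island counted once where markers share it. Cd3e (82.2 and 215 CPM) and Cd3g (163 and 220 CPM) were higher in dKO, and the other 5 were lower. The CD4 lineage genes Cd4 (14.1 CPM in WT and 30.0 CPM in dKO) and Zbtb7b (44.8 and 46.6 CPM) also had promoter islands in both lists. Of 14 markers of B, NK, myeloid and plasmacytoid dendritic cells, 8 had a promoter island in WT and 10 in dKO, with a summed level of 366 and 384 CPM, and Ebf1, Ncr1, Klra8 and Siglech had none in either, while Pax5 and S100a8 had an island in dKO alone. The part of such cells in the values of Ets1 and Fli1, which other blood cells also express, was not tested. The targeted genes kept islands in dKO, with log2 ratios of 0.15 for Tcf7 and -0.41 for Lef1, so acetylation is a weak check of the deletion.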

How the data were processed

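H3K27ac ChIP-seq was measured in sorted naive CD8+ T cells of 4 WT and 3 dKO samples, with 1 input sample per genotype. As the study's methods and the submitters' processing notes describe, the authors aligned reads to mm9 with Bowtie2 2.2.5, used FastQC, retained unique alignments of mapping quality over 10, merged the replicates by genotype and ran SICER 1.1 on each pool (window 200 bp, gap 400 bp, FDR 0.01). Whether duplicate reads were removed is not given in the sources used here. The deposited files give whole read counts per island, which the authors did not scale for depth or width. Reads were counted inside called islands alone, so weak signal outside islands is missing and a value can change with the width called.

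Counts were divided by the list total, 82668007 in WT and 57665047 in dKO, and given as CPM, and log2 ratios of dKO to WT carry 95% Wilson intervals for counting error only, which are too narrow for differences between mice. No molecular identifiers were used, so reads need not be separate molecules. Islands of both lists sharing at least 1 base were merged into regions, and islands touching a gene or window were counted whole unless said to be cut. Islands were cut for the values per kb of gene body with 50 kb upstream, the neighbouring genes, the T-cell regulator domains and the steps of 50 kb. A region was called different past a ratio of 1.5, with no test, since each genotype is 1 pooled list. Genes came from GENCODE vM1 on the same build, and motifs and printed sequences from the NCBIM37 (mm9) genome by exact match. Promoter and protein sequences of Ets1 and Fli1 were not used here. Regions were named if they lay over a start of Ets1 or Fli1, were the widest of a list, were among the 3 largest increases or decreases with at least 200 counts, or were among the 3 largest islands of 1 list alone; others are said to be chosen after their values were seen. The members and the gene lists were chosen with earlier results of these data known. Alternatives covered the scaling, counts per covered kb, the flank, joining of islands, the overlap, the ratio and the stitching distance. Merging, cutting and ratios were tested on simulated data. Python 3.11.15, numpy 2.4.6, pandas 2.3.3 and scipy 1.17.1 were used.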

Additional observations from a re-analysis of the deposited data

How the results depend on the processing

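Every value here compares 1 pooled list per genotype, so the spread between mice is unknown and the intervals cover counting error only. No paired analysis was possible because the replicates of each genotype were pooled into 1 list and carry no values of their own; for the same reason no replicate was left out in turn. A region with no island has no count, and islands called at different depths differ in width. Scaling by the totals of shared regions or by the median ratio moved every log2 ratio up by 0.07.

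Of 43 alternative settings run, 12 left the value within its counting interval or within 1.5 times the count, 28 moved it and 3 turned its direction. The domain ratio of -0.20 was -0.13 with either other scaling, -0.24 per covered kb, -0.13 with a flank of 100 kb and -0.16 with no flank, and it turned to 0.033 without the Ets1 gene-body region and the densest region after Ets1, an alternative chosen after seeing the data. The Ets1 ratio of -0.32 was -0.25 with shared-region totals, -0.24 with the median, -0.28 per covered kb, -0.36 in promoter regions and -0.37 with islands cut at the gene's ends, also added after seeing the data. The Fli1 ratio of 0.09 was 0.16 with either other scaling and 0.064 with 50 kb upstream, and turned to -0.24 per covered kb and to -0.034 in the promoter region. The 57 WT and 80 dKO islands became 26 and 36 when joined within 1 kb, 17 and 16 within 5 kb, and 30 and 45 with a flank of 100 kb. The 2 regions higher in dKO became 1 at a ratio of 2 and 4 with the median scaling, and the 6 lower became 2 at a ratio of 2 and 0 per covered kb. Islands in 1 list alone, 2 in WT and 12 in dKO, became 21 and 44 when a reciprocal overlap of 50% was asked for. The stitched region ranked 10 in WT and 31 in dKO when stitched at 20 kb, and 5 in dKO at 5 kb. The lower scaled count over Ets1 in dKO kept its direction in all 6 settings tried. The setting with 50 kb upstream added no island and returned the same value, and the other scalings shift every ratio alike. None of these settings set Ets1 against regions of like depth.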
